A study of Mus musculus with 6 samples.

Results

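Intermediate filament genes were followed in primary cortical astrocytes cultured from mouse pups with a conditional knockout of the neogenin gene Neo1 and from control pups. The 9 genes were chosen by name from the 54532 genes of a deposited count table. They were the cytoplasmic filament genes Gfap, Vim, Nes, Synm and Des, the nuclear lamin genes Lmna, Lmnb1 and Lmnb2, and Plec, which encodes the linker protein plectin. All 9 had enough counts to be tested. RNA had been sequenced from 6 libraries. Of these, 3 came from knockout pups labelled GFAP-Cre::NEOf/f, in which Cre recombinase is driven by the promoter of Gfap, itself 1 of the genes described here. The other 3 came from pups that the series' design text calls littermate controls; their library names carry the floxed-gene tag and no Cre tag. No treatment, age, sex or number of pooled pups is given, nor which litter each library came from, and the libraries are called biological replicates. Separate cultures are not stated, so the p-values measure the scatter among these libraries, and part of it may be technical.

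Intermediate filaments are rope-like polymers of coiled-coil proteins and form the third cytoskeletal system beside actin and microtubules. Astrocytes build theirs mainly from GFAP and vimentin, with nestin and synemin as partners that co-assemble with them. Nestin marks neural progenitors and immature or reactive astrocytes, and a rise of GFAP, vimentin and nestin is a textbook sign of astrocyte reactivity. Desmin is the filament protein of muscle, lamins form the mesh under the nuclear envelope, and plectin ties filaments to actin, microtubules and membranes.

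Total counts ran from 60819277 to 106081115 per library. Neo1 was at 101, 106 and 105 CPM (counts scaled by library size, with TMM factors for composition) in the knockout cultures and at 189, 189 and 198 CPM in the control cultures, so the groups did not overlap; which exons Cre removes is not given in the labels. The first principal component (49.3% of variance) separated the genotypes. Knockout replicate 2 lay away from the other 2 knockout libraries along it (−67.0 against −30.0 and −30.5) and along the second (19.6%). That library also had the fewest genes with a count (22076). The words rose and fell are kept for genes with an adjusted p under 0.05 in edgeR's quasi-likelihood test over all 18530 genes tested. Fold changes are given on the log2 scale, knockout over control. By this rule 38.3% of all genes were called, 19.6% as higher and 18.7% as lower in knockout cultures. The cultures were bulk samples, in which fewer cells of a type and less RNA per cell cannot be told apart.

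Of the 9 genes, 5 fell (Gfap, Nes, Vim, Lmnb1 and Lmnb2), 1 rose (Lmna) and 3 did not pass the test (Synm, Des and Plec). The share called, 6 of 9, stood beside 38.3% of all genes, and the 5 that fell beside 18.7%. The median log2 fold change of the 9 genes was −0.25, against −0.0018 for all genes tested. Knockout libraries all lay below control libraries for the same 5 genes that fell, a pattern found in 24.5% of all genes tested. The reverse pattern, all knockout libraries above all control libraries, was found in 24.7% of all genes and in no gene of the 9. These 5 genes, and no others of the 9, were called lower under every normalisation, tool, filter and left-out library that was tried at the 0.05 threshold, except that Plec was also called lower when libraries were scaled by total counts alone.

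**Figure D1:**
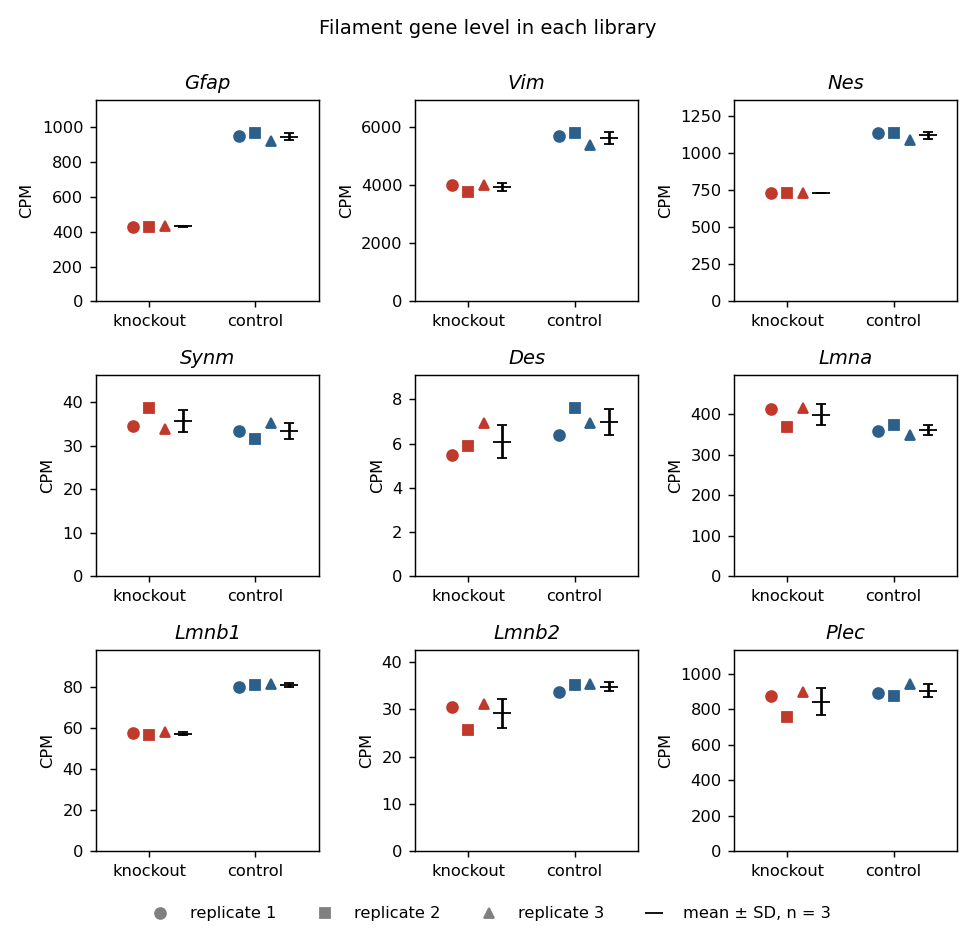
CPM of each of the 9 filament genes in each library (y axes start at 0), with knockout cultures in red at the left and control cultures in blue at the right; symbols mark the replicate number and bars the mean ± SD of 3 libraries. Knockout and control points separate for Gfap, Vim, Nes, Lmnb1 and Lmnb2 and overlap for Synm, Des, Lmna and Plec.

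Gfap (ENSMUSG00000020932, GRCm38 chromosome 11, 102887336 to 102900912, minus strand) encodes glial fibrillary acidic protein, the filament protein that defines astrocytes. It was at 429, 428 and 435 CPM in the knockout cultures and at 949, 965.5 and 924 CPM in the control cultures. The replicates of each genotype lay close together and the genotypes far apart. The means were 431 ± 3.85 CPM in knockout and 946 ± 20.8 CPM in control cultures (SD, n = 3 each), a fold of 0.456, or −1.13 on the log2 scale (SE 0.04; edgeR, adjusted p = 2.4e-13). A fold as low or lower was seen in 2.68% of the genes tested. Among the 246 genes whose mean log2 CPM reached 9, a limit chosen after the values were seen, Gfap was the 1 gene with a fold that low.

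Vim (ENSMUSG00000026728, chromosome 2, 13573927 to 13582826, plus strand) encodes vimentin, which astrocytes share with fibroblasts and other mesenchymal cells. Its values were 4008, 3771 and 4018 CPM in the knockout cultures and 5717, 5798 and 5408 CPM in the control cultures, with no overlap. Vim averaged 3932 ± 140.2 CPM in knockout and 5641 ± 206 CPM in control cultures (SD, n = 3 each), and the log2 difference was −0.52 (SE 0.04; edgeR, adjusted p = 9.9e-09). In counts of the libraries as deposited, Vim took 0.393%, 0.367% and 0.394% of all reads in knockout cultures and 0.585%, 0.5935% and 0.552% in control cultures.

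Nes (ENSMUSG00000004891, chromosome 3, 87971078 to 87980451, plus strand) encodes nestin, a large filament protein that needs a partner such as vimentin to polymerise. It was at 728, 731 and 729 CPM in the knockout cultures and at 1131, 1131 and 1089 CPM in the control cultures. The knockout libraries were almost equal, and all were lower than any control library. On the log2 scale Nes differed by −0.61 (SE 0.04; edgeR, adjusted p = 6.0e-10), from means of 729.6 ± 1.496 CPM in knockout and 1117 ± 24.2 CPM in control cultures.

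The 250 bases before the RefSeq transcription start are shown for Gfap, Vim and Nes, 3 of the 5 genes that fell. They are from build GRCm38.p6, 5′ to 3′ on the gene's strand. The windows are chr11:102897201-102897450 for Gfap, chr2:13574061-13574310 for Vim and chr3:87970843-87971092 for Nes. The Gfap and Vim windows lie inside the gene spans given above, which come from another annotation with starts further upstream. The end of the Nes window also lies inside its span. Capitals mark matches, on either strand, to any of 6 motifs: the TATA box TATAAA, the CCAAT box CCAAT, the GC box GGGCGG, a STAT motif TTCNNNGAA, an AP-1 motif TGANTCA, and the CArG box. No match overlapped a match of another motif in these 3 windows.
Gfap: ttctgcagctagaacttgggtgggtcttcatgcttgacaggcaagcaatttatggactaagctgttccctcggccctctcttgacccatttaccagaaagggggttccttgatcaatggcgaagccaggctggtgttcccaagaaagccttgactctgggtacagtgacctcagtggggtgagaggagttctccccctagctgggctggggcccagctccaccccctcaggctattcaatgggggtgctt
Vim: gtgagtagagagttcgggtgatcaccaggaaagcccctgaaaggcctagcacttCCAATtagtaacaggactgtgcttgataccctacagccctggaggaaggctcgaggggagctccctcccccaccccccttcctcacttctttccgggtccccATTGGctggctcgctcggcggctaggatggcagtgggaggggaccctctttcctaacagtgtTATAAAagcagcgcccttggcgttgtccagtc
Nes: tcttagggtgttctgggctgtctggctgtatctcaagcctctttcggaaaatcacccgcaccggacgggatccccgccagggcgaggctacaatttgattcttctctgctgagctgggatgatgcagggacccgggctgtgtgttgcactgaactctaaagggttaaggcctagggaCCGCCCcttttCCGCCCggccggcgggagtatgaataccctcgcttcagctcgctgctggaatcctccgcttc
The Vim window held a TATA box from 32 to 27 bases before the start and 2 CCAAT boxes, at 196 to 192 and at 94 to 90 bases before it. The Nes window held 2 GC boxes, at 73 to 68 and at 62 to 57 bases before the start. The Gfap window held none of the 6 motifs in these letters. Over all 32851 promoter windows of the same length, 12.4% held the TATA box, 33.8% the CCAAT box, 32.7% the GC box, 7.02% the STAT motif, 6.75% the AP-1 motif and 1.47% the CArG box. No motif was shared by the 3 windows. Promoters were examined for 7 of the 9 genes: no entry was found for Plec, and Lmnb1, which fell, was left out of the search. The same motifs also lay in windows that are not shown. Des had 2 GC boxes, Synm a CCAAT box, and Lmna a GC box and a CCAAT box in separate windows. Lmnb2 had a GC box in a window and none of the motifs in another. Among these genes only Lmnb2 fell. Any part of the motifs in the fall was not tested.

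Synm (ENSMUSG00000030554, chromosome 7, 67730160 to 67759742, minus strand) encodes synemin, a bridging filament protein of muscle and astrocytes. It was at 34.5, 38.5 and 33.8 CPM in the knockout cultures and at 33.3, 31.5 and 35.1 CPM in the control cultures. The groups overlapped, and a log2 difference of 0.10 (SE 0.07; edgeR, adjusted p = 0.31) did not pass the test. It was 0.04 without knockout replicate 2 (adjusted p = 0.72, edgeR) and 0.05 without control replicate 2 (adjusted p = 0.70, edgeR). Its exons overlap those of Gm45102 on the opposite strand over 5.37% of their length, and no source used here states whether counting used strand.

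Des (ENSMUSG00000026208, chromosome 1, 75360329 to 75368579, plus strand) encodes desmin. It was at 5.49, 5.88 and 6.91 CPM in the knockout cultures and at 6.40, 7.585 and 6.91 CPM in the control cultures, from 430 to 524 reads per knockout library and 398 to 748 reads per control library. The groups overlapped and a log2 difference of −0.20 (SE 0.13; edgeR, adjusted p = 0.27) did not pass the test. It was −0.12 without knockout replicate 1 (adjusted p = 0.59, edgeR) and −0.30 without knockout replicate 3 (adjusted p = 0.15, edgeR). Its SE was the widest of the 9. The antisense gene Gm15179 covers 5.86% of its exon length. Of 12 skeletal and cardiac muscle markers, 6 were too low to test, Myod1 and Myog among them, and 1 of the 6 tested fell. That gene was Acta1, skeletal muscle actin, at 1.575 ± 0.306 CPM in knockout and 6.68 ± 0.871 CPM in control cultures (SD, n = 3 each). The smooth muscle genes Acta2 (actin, log2 fold change −0.52) and Cnn1 (calponin, −1.13) fell, while Pdgfrb, a receptor of pericytes, rose (0.52), and of 11 pericyte and smooth muscle markers tested, 4 rose and 5 fell. Their part in the Des values was not tested.

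The levels of the 9 genes were compared with each other per kilobase of exon. With merged exon lengths, Vim was at 829 ± 29.6 CPM per kb in knockout and 1189 ± 43.3 in control cultures (SD, n = 3 each). Nes was at 114 ± 0.233 CPM per kb in knockout and 174 ± 3.77 in control cultures, and Gfap at 102 ± 0.912 in knockout and 224 ± 4.93 in control cultures. Lmna followed, at 68.2 ± 4.37 CPM per kb in knockout and 61.7 ± 2.23 in control cultures, then Plec, at 46.55 ± 4.215 in knockout and 49.9 ± 2.04 in control cultures. Lmnb1 was at 19.3 ± 0.236 CPM per kb in knockout and 27.2 ± 0.307 in control cultures, and Lmnb2 at 6.81 ± 0.706 in knockout and 8.12 ± 0.226 in control cultures. Each of these neighbours lay apart by more than its SD in both genotypes. Synm and Des were far below them, at 4.49 ± 0.323 and 1.62 ± 0.196 CPM per kb in knockout cultures and 4.196 ± 0.229 and 1.855 ± 0.158 in control cultures. Vim was thus the highest and Des the lowest in both genotypes. Nes stood above Gfap in knockout and below it in control cultures. That change of order depended on the length used: per kb of the principal transcript, Gfap was above Nes in both, at 163 ± 1.45 against 119 ± 0.244 CPM per kb in knockout cultures and 357 ± 7.86 against 182 ± 3.95 in control cultures.

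The sum of the 5 cytoplasmic genes was 1066, 1017 and 1070.0 CPM per kb in the knockout libraries and 1612, 1634 and 1535 CPM per kb in the control libraries. Gfap made up 9.54%, 9.99% and 9.65% of that sum in knockout cultures and 13.95%, 14.0% and 14.3% in control cultures, with no overlap. The share of Vim was 79.3%, 78.2% and 79.2% in knockout cultures and 74.75%, 74.8% and 74.3% in control cultures. The share of Nes was 10.65%, 11.2% and 10.6% in knockout cultures and 10.9%, 10.8% and 11.1% in control cultures, and these overlapped. The ratio of Gfap to Vim counts within a library, which no scaling between libraries can move, was 0.110 ± 0.00346 in knockout and 0.168 ± 0.00268 in control cultures. The ratio of Nes to Vim was 0.186 ± 0.00712 in knockout and 0.198 ± 0.00315 in control cultures, and every knockout library was below every control library. These shares and ratios are descriptions without a test. Per kb of the principal transcript the share of Gfap was 7.82% ± 0.208 in knockout and 11.5% ± 0.151 in control cultures.

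**Figure D2:**
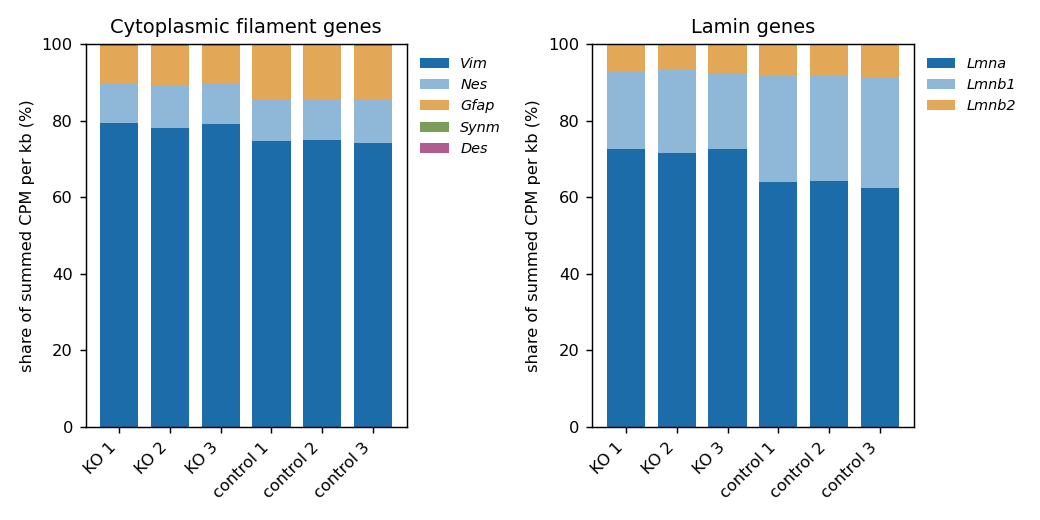
Share (%) of each gene in the summed CPM per kb of merged exon length, 1 bar per library, for the 5 cytoplasmic filament genes (left) and the 3 lamin genes (right), with knockout (KO) libraries first. Gfap takes 9.54% to 9.99% of the cytoplasmic sum in knockout libraries and 13.95% to 14.3% in control libraries, and Lmna takes 71.6% to 72.7% of the lamin sum in knockout libraries and 62.45% to 64.3% in control libraries.

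Among the lamin genes Lmnb1 and Lmnb2 fell, while the rise of Lmna was small and was called in 9 of 15 other fits. Lmnb1 (ENSMUSG00000024590, chromosome 18, 56707813 to 56753424, plus strand) encodes lamin B1, a farnesylated lamin held at the inner nuclear membrane. It was at 57.4, 56.4 and 57.8 CPM in the knockout cultures and at 79.7, 80.85 and 81.5 CPM in the control cultures. No library of one genotype came near the other, and Lmnb1 fell by 0.50 on the log2 scale (SE 0.05; edgeR, adjusted p = 3.8e-07). Lmnb2 (ENSMUSG00000062075, chromosome 10, 80901203 to 80918245, minus strand) encodes the related lamin B2. Its values were 30.6, 25.7 and 31.2 CPM in the knockout cultures and 33.7, 35.25 and 35.5 CPM in the control cultures. The groups did not overlap, knockout replicate 2 was the lowest, and Lmnb2 fell by 0.25 on the log2 scale (SE 0.08; edgeR, adjusted p = 0.012). Without knockout replicate 2 it was −0.17 (adjusted p = 0.039).

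Lmna (ENSMUSG00000028063, chromosome 3, 88480147 to 88509956, minus strand) encodes lamins A and C, which arise by splicing and are pooled in a gene count. It was at 412, 369 and 414 CPM in the knockout cultures and at 359, 373.5 and 347.5 CPM in the control cultures. Knockout replicate 2 lay below control replicate 2, so the groups overlapped. The means were 398 ± 25.5 CPM in knockout and 360.1 ± 13.0 CPM in control cultures, a log2 difference of 0.15 (SE 0.05; edgeR, adjusted p = 0.027). The rise was not called under upper-quartile scaling (0.13, adjusted p = 0.052), under scaling by total counts (0.08, adjusted p = 0.23), or without knockout replicate 1 (0.12, adjusted p = 0.12), knockout replicate 3 (0.12, adjusted p = 0.13), control replicate 1 (0.14, adjusted p = 0.10) or control replicate 3 (0.12, adjusted p = 0.092). Without knockout replicate 2 it was called, at 0.20 (adjusted p = 5.1e-04).

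Within each library the balance between the lamin genes differed by genotype. The ratio of Lmna to Lmnb1 counts was 7.18, 6.53 and 7.16 in the knockout libraries and 4.51, 4.62 and 4.265 in the control libraries, with no overlap. The ratio of Lmna to Lmnb2 was 13.7 ± 0.580 in knockout and 10.35 ± 0.482 in control cultures (SD, n = 3 each). The summed lamin level was 97.1, 88.2 and 97.7 CPM per kb in knockout libraries and 96.3, 99.5 and 95.3 CPM per kb in control libraries, which overlapped. Loss of lamin B1 is a known mark of senescent, non-dividing cells. Of 12 proliferation genes, all tested, 9 fell, beside 18.7% of all genes, with a median log2 fold change of −0.25. Their summed level ran from 760 to 798 CPM in knockout and from 890.4 to 916 CPM in control cultures. The cell cycle kinase gene Cdk1 was at 68.4 ± 3.14 CPM in knockout and 95.1 ± 1.15 CPM in control cultures. Mki67, the gene of the Ki-67 antigen, did not pass the test (115.6 ± 4.59 CPM in knockout and 103.5 ± 13.4 CPM in control cultures, adjusted p = 0.11, edgeR). Their part in the Lmnb1 values was not tested.

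Plec (ENSMUSG00000022565, chromosome 15, 76170974 to 76232574, minus strand) was at 875, 756 and 899 CPM in the knockout cultures and at 889, 875 and 945 CPM in the control cultures. Knockout replicate 2 was the lowest, and the groups overlapped. The log2 difference of −0.10 (SE 0.06; edgeR, adjusted p = 0.19) did not pass the test, was −0.03 (adjusted p = 0.63) without knockout replicate 2, and was −0.16 (adjusted p = 0.035) under scaling by total counts. The annotation lists 21 coding transcripts of Plec, which differ at their first exons and which the gene count pools.

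**Figure D3:**
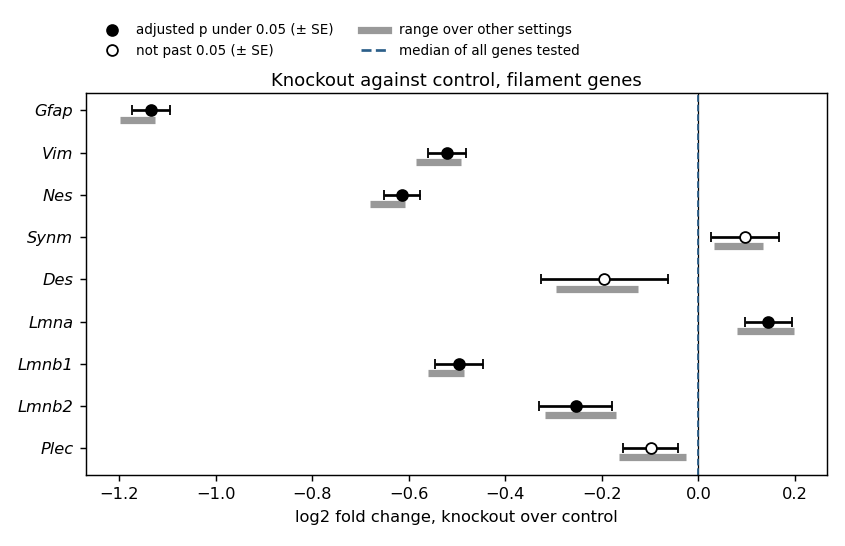
Log2 fold change of knockout over control for the 9 genes (points with SE bars; filled where the adjusted p was under 0.05), with the range over the other normalisations, tools, filters and left-out libraries as a grey bar and the median of all genes tested as a dashed line. Gfap lies at −1.13, Nes, Vim and Lmnb1 between −0.61 and −0.50, and the other genes between −0.25 and 0.15.

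The other genes of the filament system were taken from lists written with earlier results of these data known. The counts called in each list, above and below, stand beside 38.3% of all genes tested (19.6% higher and 18.7% lower). Of 8 neuronal, lens and muscle-linker filament genes, 1 rose and 1 fell. Nefm, the medium neurofilament gene, rose (18.9 ± 1.68 CPM in knockout and 11.3 ± 2.67 CPM in control cultures, log2 fold change 0.74, adjusted p = 9.4e-04, edgeR). Sync, which encodes syncoilin, a partner of desmin in muscle, fell (7.42 ± 1.46 CPM in knockout and 14.1 ± 1.15 CPM in control cultures, −0.92, adjusted p = 2.4e-05). Both are uncertain, since 19.2% of the Nefm exon length overlaps Nefl and 27.3% of the Sync exon length overlaps Rbbp4 on the opposite strand. Of 26 keratins, the filament proteins of epithelia, 11 could be tested and 2 fell, a share of 18.2%, near the 18.7% of all genes. Krt19, a keratin of simple epithelia, was at 4.65 ± 0.2799 CPM in knockout and 10.9 ± 0.812 CPM in control cultures (−1.23). Krt80, another keratin, was at 0.975 ± 0.364 CPM in knockout and 2.24 ± 0.758 CPM in control cultures (−1.18, SE 0.33, adjusted p = 0.0084, edgeR). Its groups lay close, with knockout replicate 2 at 1.24 CPM and control replicate 3 at 1.37 CPM. Krt4, Krt6b and Krt79 were at 0 counts in all 6 libraries.

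Linkers split. Of 12 plakin and desmosomal genes, 3 rose and 5 fell, with a median log2 fold change of −0.36. Dst, which encodes dystonin, a giant plakin related to plectin, was at 716, 713 and 764 CPM in knockout cultures and at 406, 389 and 504 CPM in control cultures. All knockout libraries were higher, and control replicate 3 was the highest control (0.755, adjusted p = 2.1e-04, edgeR). The plakophilin gene Pkp1 rose as well (1.10), while Pkp2, another plakophilin, and Jup, plakoglobin, fell by 0.63 and 0.64 on the log2 scale. Of 12 genes for proteins of the cell membrane and its skeleton, focal adhesions among them, 4 rose and 3 fell. Dag1, dystroglycan, was at 581.5 ± 9.21 CPM in knockout and 736.5 ± 19.1 CPM in control cultures (−0.34). The dystrophin relative Utrn was at 282 ± 10.6 CPM in knockout and 210.2 ± 25.4 CPM in control cultures (0.42), and control replicate 3 was again the highest control (239 CPM). Zyx, zyxin of focal adhesions, fell by 0.22 on the log2 scale, and the spectrin gene Sptbn1 rose by 0.20.

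Among 16 partners of the lamina, 5 rose and 6 fell (median −0.05). Emd, the lamin-binding protein emerin, was at 99.3, 99.3 and 92.9 CPM in knockout cultures and 150.4, 149.7 and 142 CPM in control cultures (−0.60, adjusted p = 2.4e-08, edgeR). Sun1 and Sun2, which encode the inner-membrane proteins of the bridge between lamina and cytoskeleton, fell by 0.42 and 0.49 on the log2 scale. Their outer-membrane partners, the nesprin genes Syne1, Syne2 and Syne3, rose by 0.51, 0.36 and 1.17. As for Dst, control replicate 3 was the highest control for Syne1 (63.2, 60.9 and 81.55 CPM in control cultures). The same held for Syne2 (42.5, 43.6 and 54.4 CPM). Sun1, Sun2, Syne1 and Syne2 were picked after their values were seen. Nesprin-3, the product of Syne3, binds plectin. Syne3 was at 18.95, 21.9 and 21.5 CPM in knockout cultures and 9.004, 8.745 and 9.88 CPM in control cultures. Tor1aip1, which encodes a lamina-associated activator of torsin, rose by 0.67, and Tor1aip2, which encodes a related torsin activator of the endoplasmic reticulum, by 0.62. Exons of these genes overlap each other on opposite strands, over 12.9% of the Tor1aip1 and 7.58% of the Tor1aip2 exon length. Of 5 enzymes that mature lamins, 1 rose and 3 fell. The farnesyltransferase subunit genes Fnta and Fntb fell by 0.18 and 0.30 on the log2 scale, the protease gene Rce1 fell by 0.33, and Icmt, a carboxyl methyltransferase, rose by 0.15.

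Of 14 kinases and phosphatases that act on filament proteins, 1 rose and 6 fell (median −0.18). Aurkb, Cdk1 and Plk1, the mitotic kinases, fell by 0.66, 0.48 and 0.51 on the log2 scale. They are also members of the proliferation list. Ppp1ca, a catalytic subunit of protein phosphatase 1, fell by 0.25. Of 9 chaperones and turnover genes, 3 rose and 3 fell. Hspb1 and Cryab encode small heat shock proteins that bind GFAP and vimentin filaments. Hspb1 was at 75.2, 81.5 and 80.6 CPM in knockout cultures and 154, 149 and 139.7 CPM in control cultures (−0.90, adjusted p = 2.9e-10, edgeR). Cryab was at 333, 361 and 327 CPM in knockout cultures and 509.7, 502 and 469 CPM in control cultures (−0.54, adjusted p = 7.8e-08, edgeR). For both genes every knockout library was lower than every control library, and 17.0% of the Cryab exon length overlaps Hspb2. Capn2, a calpain protease, fell by 0.38 on the log2 scale, while Capn1 rose by 0.37; 27.1% of the exon length of Capn2 is covered by an antisense gene.

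Of 22 regulators of Gfap transcription, 7 rose and 4 fell (median 0.13). Jak2, a kinase of the JAK-STAT pathway, was at 211, 230.1 and 221 CPM in knockout cultures and 87.7, 86.4 and 92.0 CPM in control cultures (1.31, adjusted p = 6.9e-13, edgeR). Lif, a cytokine of the pathway, rose by 0.53. Stat3, the STAT factor best known for driving Gfap, was at 287 ± 2.565 CPM in knockout and 292 ± 2.06 CPM in control cultures and did not pass the test (−0.03, SE 0.04, adjusted p = 0.65, edgeR). Sox9 and Nfia, factors of astrocyte identity, did not pass either, at 0.18 (SE 0.07) and −0.14 (SE 0.08). The cytokine gene Clcf1, the feedback inhibitor gene Socs3 and Bmp4 fell by 0.74, 0.47 and 0.86 on the log2 scale. Of 15 other reactive astrocyte genes, 11 rose and 1 fell (median 0.46). Lcn2, lipocalin 2, was at 1168 ± 48.7 CPM in knockout and 432 ± 19.3 CPM in control cultures. Cp, ceruloplasmin, Serpina3n, a protease inhibitor, and Timp1, an inhibitor of matrix proteases, rose by 1.44, 1.18 and 1.03. The 1 that fell was Hspb1.

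**Figure D4:**
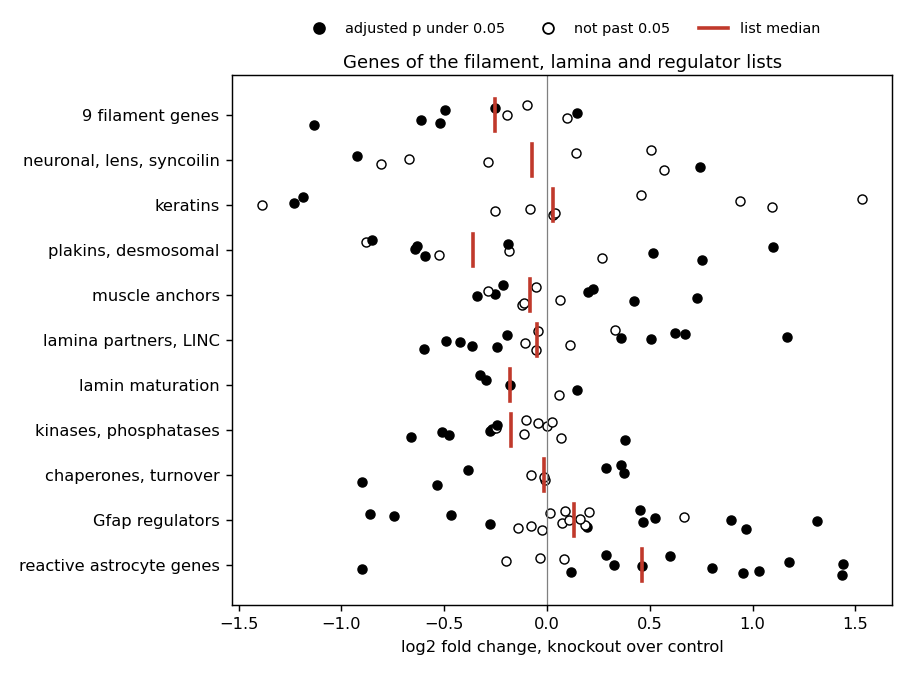
Log2 fold change of knockout over control for each tested gene (point; filled where the adjusted p was under 0.05) of the 9 filament genes and 10 lists of related genes, with the list median as a red bar. The lists lie on both sides of 0, with medians from −0.36 for plakins and desmosomal genes to 0.46 for other reactive astrocyte genes.

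Markers of cell types were counted as well, beside 38.3% of all genes called (19.6% higher and 18.7% lower). Of 15 astrocyte markers other than Gfap, 2 rose and 10 fell (median −0.34), with a summed level of 3010.0 to 3127 CPM in knockout and 2988 to 3065 CPM in control cultures. Aqp4, the astrocyte water channel, rose by 0.54 and Slc1a2, a glutamate transporter, by 1.48, while Aldh1l1, a folate enzyme, Fgfr3, a growth factor receptor, and Slco1c1, a thyroid hormone transporter, fell by 0.41, 1.37 and 1.72 on the log2 scale. Neural progenitors hold Nes and Vim; of 7 of their markers tested, 1 rose and 4 fell (median −0.15), at 538.7 to 543 CPM in sum in knockout and 592 to 632.5 CPM in control cultures. Fibroblasts are rich in Vim and lack Gfap; of 11 fibroblast and meningeal markers tested, 9 rose and 1 fell (median 0.61), with a summed level of 10970.0 to 11720.0 CPM in knockout and 8081 to 8552 CPM in control cultures. Of 14 microglia and macrophage markers, 1 rose and 10 fell (median −0.93), at 55.0 to 59.3 CPM in knockout and 91.75 to 96.4 CPM in control cultures. Of 7 endothelial markers tested, 3 rose (42.9% called), and of 8 neuronal markers, 2 fell (25.0% called). Of 9 oligodendrocyte lineage markers tested, 2 rose and 4 fell, and of 8 ependymal and choroid plexus markers tested, 1 rose and 5 fell. The 2 oligodendrocyte lineage markers that rose are also counted in other lists. Pdgfra is among the fibroblast markers, and Cspg4 among the pericyte markers and the reactive astrocyte genes. The 4 that fell are in no other list used here. The part of other cells in the fall of Gfap, Vim and Nes was not tested.

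The genes whose library profile was most like that of Gfap were sought among 6206 other protein-coding genes whose mean log2 CPM was 5 or more. Likeness was the root mean square difference of log2 CPM, centred on each gene's mean, over the 6 libraries. The closest was Cnn1, the smooth muscle calponin gene (0.0221), followed by Ckb, brain creatine kinase (0.0567), the sulfatase gene Arsi (0.0609), Adgrg1, an adhesion receptor gene (0.0659), and Pmp22, a peripheral myelin protein gene (0.0665). Cnn1 was at 118.5, 122 and 119 CPM in knockout cultures and 261.5, 273 and 252.5 CPM in control cultures. The log2 fold changes of these 5 genes ran from −1.13 (Cnn1) to −1.01 (Adgrg1), beside −1.13 for Gfap. With replicates this close together, the measure mainly follows the fold change. Of the other filament genes, Nes (0.26) and Vim (0.308) were the nearest and ranked 147th and 245th, and their fold changes were smaller.

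**Figure D5:**
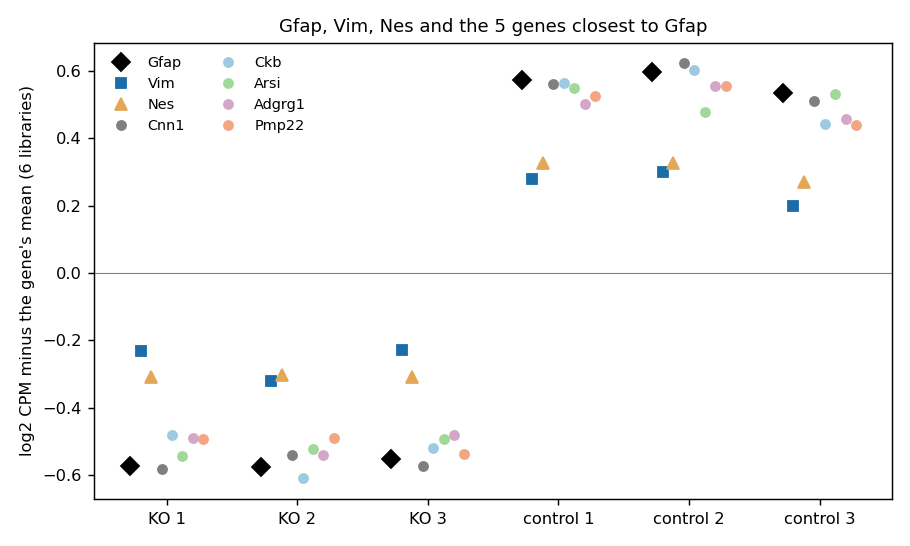
Log2 CPM minus each gene's mean over the 6 libraries for Gfap, Vim, Nes and the 5 genes closest to Gfap; each library is a position on the x axis, with knockout (KO) libraries first. The 5 closest genes were picked for lying near Gfap over these 6 libraries, with Cnn1 at a root mean square difference of 0.0221. Vim and Nes lie nearer to 0 in both genotypes.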

How the data were processed

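Polyadenylated RNA was sequenced in 6 libraries, and the authors deposited a table of raw counts per gene, which the submitters' processing notes credit to HISAT2 2.2.1 and featureCounts 2.0.6 with build GRCm38. No source used here states the annotation release, the strand setting or the treatment of multi-mapping reads. Columns were matched to libraries by library name. Genes were filtered with filterByExpr (minimum count 10, minimum total 15), leaving 18530 of 54532 genes with 99.96% of counts. The test was edgeR's quasi-likelihood test (version 4.0.16, R 4.3.3; TMM, robust glmQLFit, genotype as the single term, two-sided, Benjamini-Hochberg over all tested genes, threshold 0.05). The script was checked on simulated data; it missed the recovery first required of it at a true fold of 1.5, and that requirement was then replaced by checks of bias, false calls and recovery at a fold of 2, with the fit unchanged. Standard errors come from the test statistic. No pair within a group looked like a library deposited in duplicate: chi-square per gene was between 5.996 and 22.2, above sampling noise.

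Coordinates, exon lengths and overlaps come from GENCODE M21 (GRCm38), and promoters from RefSeq (GRCm38.p6). BLAST 2.17.0 of the longest coding transcript found no near-identical copy of the 9 genes; matches of at least 95% identity over at least 100 bases covered at most 7.33% of a transcript. The genes named are the 9, Neo1, up to 4 called genes of each related list and 3 of each marker list with the smallest p, and the 5 closest to Gfap, and genes at 0 in all libraries. Aldh1l1, Aqp4, Bmp4, Mki67, Myod1, Myog, Nfia, Socs3, Sox9, Stat3, Sun1, Sun2, Syne1 and Syne2 are named outside this rule and were chosen after their values were seen. A gene that the rule names is not reported here. Members and lists were chosen with earlier results of these data known.

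Alternatives were median-of-ratios, upper-quartile and total-count scaling, DESeq2 1.42.0, limma-voom (limma 3.58.1), testing unfiltered genes or those at 1 CPM or more in 3 libraries, a non-robust fit, one with the replicate number as a block, leaving out each library, a threshold of 0.01 and a test against a fold of 1.5. The length of the principal transcript, as an alternative to merged exons, was added after the data were seen.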

Additional observations from a re-analysis of the deposited data

How the results depend on the processing

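Gfap, Vim, Nes, Lmnb1 and Lmnb2 kept their direction and their call under all 15 other fits at the 0.05 threshold, with log2 fold changes from −1.20 to −1.13, −0.59 to −0.49, −0.68 to −0.61, −0.56 to −0.49 and −0.32 to −0.17. Lmna was the 1 gene counted as higher; with upper-quartile scaling, with total counts alone and at a threshold of 0.01 the count was 0, and over the left-out libraries it ran from 0 to 1. Its log2 fold change ran from 0.08 to 0.20 over the 15 fits and was called in 9. Plec was called in 1, with total counts alone (−0.16), and Synm and Des in none of them. At a threshold of 0.01 the number lower was 4, Lmnb2 being lost (adjusted p = 0.012, edgeR). Against a fold of 1.5, 1 of the 9 genes was lower (Gfap) and 0 were higher, and over all genes 348 were lower and 666 higher. Over all genes, total counts alone gave 2921 higher and 4499 lower and moved the median log2 fold change to −0.067, against −0.0018 with TMM. Leaving out a library gave 2907 to 3517 higher and 2753 to 3431 lower. Where a call was lost the cause was not tested. The labels state no pairing of the replicate numbers. Same-numbered libraries correlated by 0.0151, 0.0194 and −0.00821 in their deviations from group means, so no shared replicate effect was visible. With the litter of each library not given, these values cannot show whether cultures were paired. The fit with the replicate block gave 3501 higher and 3383 lower and changed no call among the 9 genes (5 lower, 1 higher). With the principal transcript's length, chosen after seeing the data, the share of Gfap in the cytoplasmic filament level was 7.82% in knockout and 11.5% in control cultures, against 9.73% in knockout and 14.1% in control cultures with merged exons. Depth limits Des most, at 398 to 748 reads per library.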
